A study of Rattus norvegicus with 14 samples.

Results

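The transcriptional response of rat hippocampal neuron cultures to allopregnanolone (Allo) was set against that of hippocampal astrocyte cultures, gene by gene. For each gene, the mean AM-Allo minus AM-Veh difference on the log2(normalized count + 1) scale was taken in each culture, and the astrocyte response was subtracted from the neuron response. A gene entered when its symbol occurred once in both tables and its mean normalized count was at least 10 in each. This left 14369 genes of the 31789 symbols measured in the series, of which 18238 were in the neuron table and 18218 occurred once in both.

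Poly(A) RNA was sequenced from 14 libraries: 4 AM-Veh and 4 AM-Allo libraries of neurons, and 3 AM-Veh and 3 AM-Allo libraries of astrocytes. Both cultures were made from hippocampi of Sprague Dawley rat fetuses at embryonic day 18, the neurons grown directly and the astrocytes replated from mixed glia that had been shaken to remove microglia and oligodendrocytes. AM, the aging model medium, was Neurobasal with less B27 supplement for neurons, given on day 10 for 4 h before treatment, and charcoal-stripped serum in DMEM/F-12 for astrocytes, given for 24 h before treatment. Neurons then received 100 nM Allo (AM-Allo) or ethanol vehicle (AM-Veh) for 16 h, and astrocytes received 100 nM Allo or vehicle for 24 h. All 14 libraries came from cells in AM medium. Cell type, medium, treatment time and the separate normalization of each table therefore all differ between the neuron and astrocyte responses and cannot be told apart in their difference. Nothing in the labels or methods says which libraries came from separate cultures or animals, so p-values measure the spread between libraries, which may be technical.

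Allo is a neurosteroid made from progesterone that strengthens the opening of GABA-A receptors, the chloride channels gated by GABA. In immature neurons, where chloride flows outward through these receptors, GABA can depolarise the cell, open L-type calcium channels and activate the transcription factor CREB through calcium-dependent kinases. Astrocytes also carry GABA-A receptors, and they supply neurons with metabolites, antioxidants and cholesterol.

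The labels were checked against marker genes. The neuron cultures held Tubb3, a neuronal tubulin, at 8417 to 11139 normalized counts and the synaptic vesicle gene Syp at 2813 to 3733, whereas the astrocyte cultures held them at 25.5 to 36.6 and 20.0 to 50.9. Rbfox3, Nefl and Slc17a7, which define mature neurons, neurofilament and glutamatergic terminals, each lay between 0 and 8.15 in the astrocyte libraries. Other genes of the neuron list were not low there. Stmn2, a neuronal tubulin-binding protein, was at 20946 to 22152 in the astrocyte libraries against 8802 to 11475 in the neuron libraries, Gad1 at 1719 to 1948 against 692 to 1463 and Map2 at 3268 to 4066 against 23908 to 27068. The neuron list summed to 26600 to 28300 in the astrocyte libraries. Astrocyte transcripts were not particular to the astrocyte cultures. The summed level of 12 astrocyte markers ran from 252000 to 303000 in the neuron libraries and from 282000 to 295000 in the astrocyte libraries, and Gfap, the astrocyte intermediate filament, was at 68164 to 118740 in the neuron libraries. Oligodendrocyte lineage markers summed to 79400 to 88300 in the neuron libraries and 6560 to 7030 in the astrocyte libraries, and mesenchymal markers to 32200 to 51800 and 512000 to 536000. In the AM-Veh and AM-Allo neuron libraries the astrocyte sums were 252000 to 303000 and 253000 to 295000, the neuron marker sums 71000 to 78500 and 74600 to 83900, and the oligodendrocyte lineage sums 79400 to 83500 and 83900 to 88300, of which the last pair did not overlap. The part of these other cells in the responses below was not tested, and in bulk RNA fewer cells of a type and less RNA per cell cannot be told apart. Estimated reads on genes ran from 19500000 to 27800000 per library.

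Over all genes, the responses of the neuron and astrocyte cultures showed next to no agreement. The correlation across the 14369 genes was -0.0782 (Pearson) and -0.0515 (Spearman), and 48.6% of genes had the same sign in both cultures. Genes are not independent replicates, so these are descriptions. For comparison within the neurons, the response measured in the libraries numbered 1-1 and 1-2 correlated with that in 2-1 and 2-2 at 0.0812, with 52.4% of genes of the same sign. The correlation between cultures was -0.0916 in genes whose lower mean was 10 to 100, -0.0308 at 100 to 1000 and -0.0718 above 1000, while the responses of the pair of neuron library sets correlated at 0.173 in the last of these classes. The responses were small in both cultures, with standard deviations over genes of 0.149 in neurons and 0.183 in astrocytes against median standard errors (SE) of 0.0574 and 0.0726. Within the classes, from low to high, the neuron standard deviations were 0.26, 0.0925 and 0.0512 against median SEs of 0.182, 0.0589 and 0.0321. Those of astrocytes were 0.316, 0.12 and 0.0586 against 0.22, 0.0744 and 0.0432, so the spread was closer to the error than over all genes.

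At an unadjusted p under 0.05 (limma), 1565 genes (10.9%) changed in neurons, 799 up (5.56%) and 766 down (5.33%). In astrocytes 1002 genes (6.97%) changed, 540 up (3.76%) and 462 down (3.22%). Both sets held 134 genes. These were 8.56% of the neuron genes, where 6.97% of all genes tested changed in astrocytes. They were 13.4% of the astrocyte genes, where 10.9% of all genes tested changed in neurons. Of the 134, 52 genes (0.362% of all tested) moved in the same direction, 27 up and 25 down in both. A further 82 (0.571%) moved in opposite directions, 31 up in neurons and down in astrocytes and 51 the other way. The overlap was not tested, so these counts are no evidence of a shared or an opposite response. Of the 1565 genes that changed in neurons, 46.2% had the same sign in astrocytes, and of the 1002 that changed in astrocytes, 42% had the same sign in neurons. After Benjamini-Hochberg adjustment over all genes, 89 genes (0.619%) passed in neurons and 1, Gatd1, in astrocytes. Of the 89, 41 had the same sign in astrocytes and 6 had an unadjusted p under 0.05 there, 3 in each direction.

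The treatment-by-culture difference had an unadjusted p under 0.05 for 1418 genes (9.87%). The response was higher in neurons for 632 (4.4%) and lower for 786 (5.47%), so that 44.6% were higher, against 63.3% of 1463 under upper-quartile scaling. After adjustment 34 genes remained (0.237%), 10 higher and 24 lower in neurons. In 31 of the 34 the responses had opposite signs, whereas 48.6% of all genes tested had the same sign. By each culture's own unadjusted test, 11 had changed in neurons alone, 10 in astrocytes alone and 13 in both, in each case in opposite directions. Picking genes by a large difference favours opposite signs. These counts of direction are thus set in part by the selection and are no evidence of opposite responses. Of the 34, 7 carry an identifier with no symbol. Without the first replicate number as a block, 2 genes passed the adjusted test and 31 of the 34 kept an unadjusted p under 0.05. The adjusted count ran from 4 to 97 when single libraries were left out, with 4 without neuron AM-Veh 2-1, astrocyte AM-Veh 1 or astrocyte AM-Veh 3 and 97 without astrocyte AM-Allo 1. In each of these fits all 34 genes kept an unadjusted p under 0.05.

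**Figure D1:**
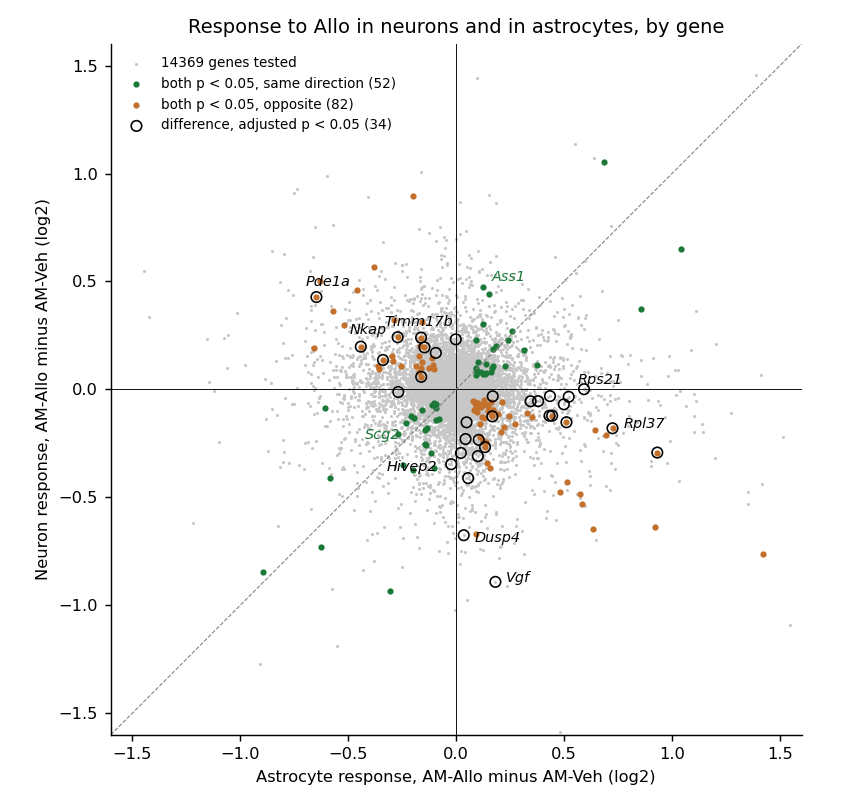
Each point is a gene, with its astrocyte response on the x axis and its neuron response on the y axis (AM-Allo minus AM-Veh, log2), and the dashed line marks equal responses; 16 genes lie outside the axes. Genes called in both cultures in the same direction (52) and in opposite directions (82) are coloured, and circles mark the 34 genes whose difference passed adjustment, most of which lie in the lower right, where neurons fell and astrocytes rose.

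Vgf, the precursor of secreted neuropeptides and a growth factor-inducible gene of neurons, showed the difference with the smallest p. In neurons it stood at 1975, 1921, 2508 and 2457 normalized counts in AM-Veh and at 1010, 824, 1729 and 1369 in AM-Allo (libraries 1-1, 1-2, 2-1 and 2-2). In astrocytes it stood at 281, 319 and 308 in AM-Veh and 379, 312 and 340 in AM-Allo. The neuron groups did not overlap, and the astrocyte groups did. The neuron response was -0.89 ± 0.0839 (log2, SE), the astrocyte response 0.18 ± 0.0936, and their difference -1.07 ± 0.126 (adjusted p = 5.13e-05).

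Scg2, the precursor of secretogranin II and of the peptide secretoneurin and thus of the same granin family, fell in both cultures instead. In neurons the AM-Veh libraries held 4196, 3913, 8886 and 9595 normalized counts and the AM-Allo libraries 3360, 3479, 8181 and 8640. Within each first replicate number both AM-Allo libraries lay below both AM-Veh libraries, although the numbers themselves stood far apart. In astrocytes the values were 16020, 14590 and 15200 in AM-Veh and 14400, 13060 and 14000 in AM-Allo, with no overlap. The responses were -0.19 ± 0.0347 in neurons and -0.14 ± 0.0438 in astrocytes (unadjusted p = 6.7e-05 and 0.0059), and their difference of -0.05 ± 0.0559 was not distinguishable from 0.

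The promoters of Vgf and Scg2 are shown because both hold the full cAMP response element TGACGTCA, the palindromic site to which CREB binds, and both fell in neurons. The sequences are RefSeq windows of build GRCr8, from 250 bases before to 50 after the annotated start, read on the minus strand of each, with the element in capitals. Vgf lies at chr12:25276971-25277270 and Scg2 at chr9:88256817-88257116. The pair was chosen after their values were seen.
Vgf: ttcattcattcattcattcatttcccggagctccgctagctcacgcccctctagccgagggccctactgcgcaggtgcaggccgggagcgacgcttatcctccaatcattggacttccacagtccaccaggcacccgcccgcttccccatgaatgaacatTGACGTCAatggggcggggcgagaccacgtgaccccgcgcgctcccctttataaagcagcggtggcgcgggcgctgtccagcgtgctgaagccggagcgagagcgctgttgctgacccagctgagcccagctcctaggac
Scg2: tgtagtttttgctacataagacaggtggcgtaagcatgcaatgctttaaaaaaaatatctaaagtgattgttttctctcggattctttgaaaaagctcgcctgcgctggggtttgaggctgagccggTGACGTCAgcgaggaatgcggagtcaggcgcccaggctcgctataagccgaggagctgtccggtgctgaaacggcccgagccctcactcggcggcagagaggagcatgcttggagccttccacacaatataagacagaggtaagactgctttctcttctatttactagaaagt
The element begins 90 bases before the start in Vgf and 123 bases before it in Scg2. Among the 9893 tested genes with a RefSeq promoter by symbol, 314 (3.17%) held it, as did 2.0% of all 27457 promoter symbols. It was in 3 of the 31 genes with a promoter that fell in neurons after adjustment, Vgf, Scg2 and Sst, in 1 of the 34 with a promoter that rose, and in 2 of the 21 whose difference passed adjustment, Vgf and Cox8a. These matches are descriptions of the windows and were not tested. Sst, the interneuron peptide somatostatin, fell in neurons by 0.59 on the log2 scale (adjusted p = 0.00539) and had a response of -0.06 ± 0.193 in astrocytes.

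Genes that fell in neurons and were near 0 in astrocytes included regulators of signalling. Dusp4, a nuclear phosphatase that switches off ERK, stood at 1132, 1020, 1215 and 1091 normalized counts in AM-Veh neurons and at 648, 636, 785 and 725 in AM-Allo neurons. The astrocyte values were 274, 225 and 193 in AM-Veh and 245, 236 and 221 in AM-Allo. The neuron groups lay clear of each other and the astrocyte AM-Allo libraries lay inside the AM-Veh range. The difference was -0.71 ± 0.134 (adjusted p = 0.0428). Hivep2, a zinc finger transcription factor, went from 2700, 2612, 2811 and 2748 to 2109, 1997, 2208 and 2239 in neurons, without overlap. In astrocytes it was at 2044, 2038 and 2046 in AM-Veh and 1855, 1939 and 2258 in AM-Allo, on both sides of the vehicle values. Its difference was -0.32 ± 0.0672 (adjusted p = 0.0481).

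Rcan2, which inhibits the calcium-dependent phosphatase calcineurin, was at 1048, 999, 1105 and 1068 normalized counts in AM-Veh neurons and 814, 768, 953 and 916 in AM-Allo neurons. In astrocytes it was at 2924, 3034 and 2891 against 2996, 3090 and 2902. Again the neuron groups did not overlap and the astrocyte groups did, with a difference of -0.32 ± 0.0591 (adjusted p = 0.0260). S1pr3, a receptor for sphingosine 1-phosphate, had neuron and astrocyte responses of -0.23 and 0.04, and Abcb1b, a multidrug efflux pump, of -0.23 and 0.10 (adjusted p = 0.0428 for both differences). The S1pr3 neuron groups were apart within each first replicate number but overlapped across the numbers. The adjusted p of the S1pr3 difference ran from 0.00477 to 0.933 over the alternative settings and left-out libraries. Ezr, which links the membrane to actin, had responses of -0.15 and 0.05, and Nrg1, a growth factor of the ErbB receptors, of -0.27 and 0.13 (adjusted p = 0.0461 and 0.0456). Nrg1 also rose in astrocytes by the limma test there (unadjusted p = 0.0323), without overlap.

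Tagln, an actin-binding protein of smooth muscle and mesenchymal cells, also fell in the neuron cultures. Its AM-Veh neuron libraries were at 5813, 6245, 8116 and 8744 normalized counts and its AM-Allo libraries at 4911, 5298, 6934 and 6059. In astrocytes it was at 39220, 43520 and 46230 against 46970, 44960 and 46070. Within each first replicate number the neuron groups did not overlap, and the difference was -0.41 ± 0.0683 (adjusted p = 0.0102). Tagln was on the mesenchymal marker list, of whose 10 tested genes 1 rose and 2 fell in neurons and none passed in astrocytes, and the summed mesenchymal level of the neuron libraries was 35200 to 51800 in AM-Veh and 32200 to 43300 in AM-Allo. Gad1, which makes GABA, was at 1181, 1091, 1463 and 1280 in AM-Veh neurons and 739, 692, 1290 and 1168 in AM-Allo neurons. The fall was -0.67 among the libraries numbered 1 and -0.16 among those numbered 2, where the groups overlapped. Gad1 had an astrocyte response of 0.06 and a difference of -0.47 ± 0.0959 (adjusted p = 0.0448).

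**Figure D2:**
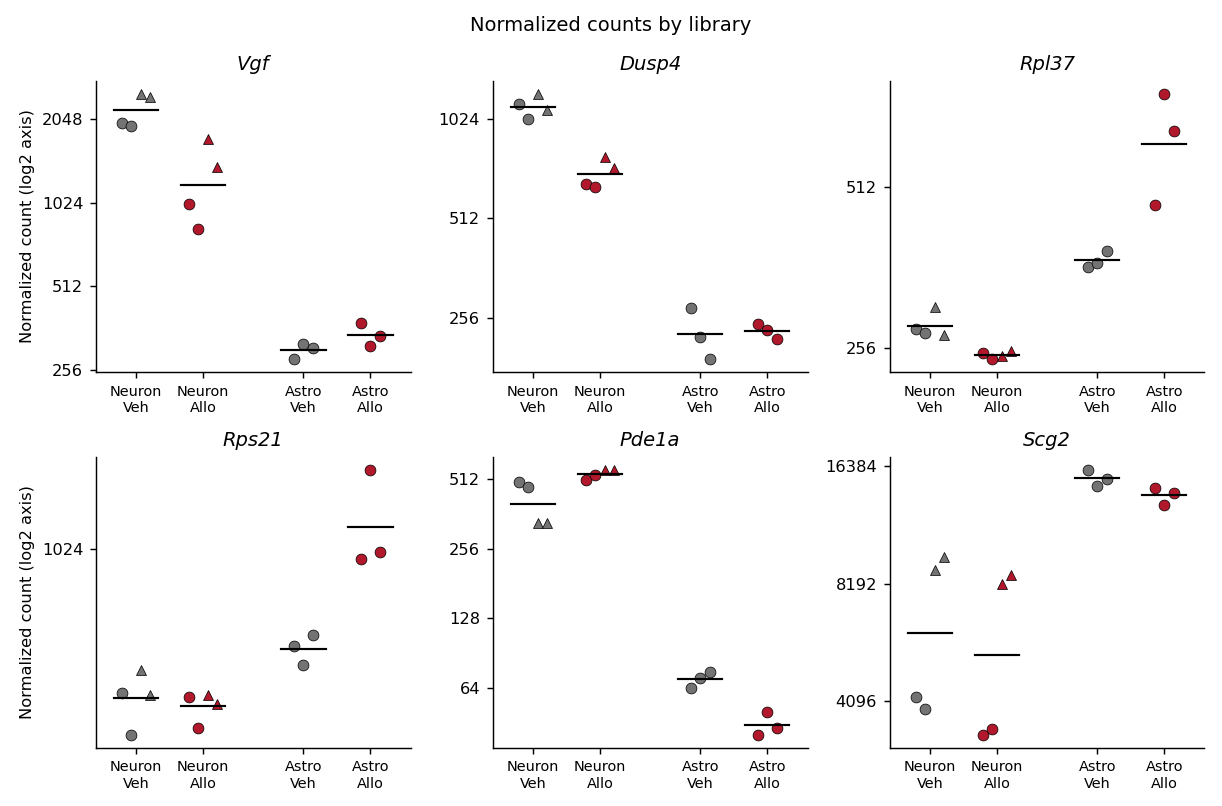
Normalized counts of 6 genes on a log2 axis, with a point for each library and a bar at the geometric mean of each group; in neurons circles mark libraries numbered 1 and triangles those numbered 2. Vgf and Dusp4 fell in neurons alone, Rpl37 and Rps21 rose in the 3 AM-Allo astrocyte libraries, Pde1a moved in opposite directions and Scg2 fell in both cultures.

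Fewer genes stood higher in the neuron response. Prnp, the prion protein gene, was at 6270, 5831, 6287 and 6087 normalized counts in AM-Veh neurons and at 6890, 6872, 7536 and 7456 in AM-Allo neurons. In astrocytes it held 13340, 13790 and 13970 in AM-Veh and 13790, 13570 and 13690 in AM-Allo. The neuron groups were apart and the astrocyte AM-Allo libraries lay within the AM-Veh range, with a difference of 0.23 ± 0.0433 (adjusted p = 0.0260). Sema5a, an axon guidance molecule, had neuron and astrocyte responses of 0.17 and -0.09, and Gpm6a, a neuronal membrane glycoprotein, of 0.06 and -0.16 (adjusted p = 0.0448 and 0.0456). Hspa8, the constitutive HSP70 chaperone, had a neuron response of -0.01 and an astrocyte response of -0.27, so its positive difference of 0.26 ± 0.0547 came with a fall in astrocytes (adjusted p = 0.0456).

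Among the genes with a higher neuron response, Pde1a, Timm17b and Nkap changed in both cultures, in opposite directions and without overlap in either. Pde1a, a calmodulin-dependent phosphodiesterase that breaks down cyclic nucleotides, was at 499.7, 475.7, 329.7 and 331.6 normalized counts in AM-Veh neurons and 507, 534, 562 and 561 in AM-Allo neurons. In astrocytes it went from 63.7, 70.5 and 74.6 to 40.0, 49.96 and 42.5. The neuron response was 0.09 among the libraries numbered 1 and 0.76 among those numbered 2, and the difference was 1.07 ± 0.211 (adjusted p = 0.0428). Timm17b, part of the inner mitochondrial membrane import channel, was at 326, 307, 321 and 351 in AM-Veh neurons and 379, 392, 388 and 383 in AM-Allo neurons. Its astrocyte values were 539, 545 and 549 in AM-Veh and 477, 493 and 390 in AM-Allo. The difference was 0.51 ± 0.105 (adjusted p = 0.0428). Nkap, a nuclear repressor, had a neuron response of 0.20 and an astrocyte response of -0.44 (adjusted p of the difference = 0.0456).

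Several genes that rose in astrocytes and did not rise in neurons encode ribosomal proteins. Among all genes that rose in astrocytes at an unadjusted p under 0.05, the smallest p of the difference belonged to a gene with no symbol. Its product is not identified here. Its responses were 0.51 in astrocytes and -0.15 in neurons (adjusted p = 0.00828). Rpl37, of the large subunit, was at 363, 370 and 389 normalized counts in AM-Veh astrocytes and 474, 764 and 651 in AM-Allo astrocytes. In neurons it was at 278, 273, 306 and 271 in AM-Veh and 250.2, 244, 247 and 253 in AM-Allo. Neither culture's groups overlapped, and AM-Allo replicate 1 was the lowest of the treated astrocyte libraries. The difference was -0.90 ± 0.146 (adjusted p = 0.0167). Rps21, of the small subunit, went from 769, 726 and 794 to 995, 1296 and 1017 in astrocytes. Its neuron values, 669, 591, 717 and 665 in AM-Veh and 660.2, 603, 666 and 647 in AM-Allo, overlapped throughout. Its difference was -0.56 ± 0.101 (adjusted p = 0.0291).

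Rpl37a and Rplp1 passed too, with astrocyte responses of 0.50 and 0.17, neuron responses of -0.07 and -0.03 and adjusted p-values of 0.0461 and 0.0456. Rps10l1, which RefSeq lists as a pseudogene and which may share reads with Rps10, had responses of -0.05 in neurons and 0.38 in astrocytes (adjusted p = 0.0329) and is uncertain for that reason. Ribosomal protein genes have many near-identical copies in the genome, so reads of the others may also be split. RGD1560324, whose product is not identified here, had responses of -0.03 and 0.43 (adjusted p = 0.0310).

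Among mitochondrial genes, Atp5mg, a subunit of ATP synthase, was at 894, 847 and 921 normalized counts in AM-Veh astrocytes and 977, 1319 and 1367 in AM-Allo astrocytes. In neurons it was at 1804, 1594, 1780 and 1745 in AM-Veh and 1544, 1562, 1510.0 and 1749 in AM-Allo. The astrocyte groups did not overlap and the neuron groups did, with a difference of -0.57 ± 0.109 (adjusted p = 0.0428). Cox8a, a cytochrome c oxidase subunit, had an astrocyte response of 0.35 and a neuron response of -0.06 (adjusted p = 0.0461). Gatd1, a glutamine amidotransferase-like gene, had the lowest counts of the group. It was at 4.28, 5.45 and 3.998 in AM-Veh astrocytes and 44.3, 77.0 and 71.0 in AM-Allo astrocytes, a response of 3.51 ± 0.324. Its neuron values scattered without regard to treatment, 3.31, 7.10, 41.7 and 2.81 in AM-Veh and 1.87, 2.00, 14.6 and 20.4 in AM-Allo. Gatd1 reached the mean of 10 through the AM-Allo libraries in astrocytes and in neurons only with AM-Veh 2-1 included, so its difference of -3.76 ± 0.695 is given as a description.

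Overlap was next read for genes called in both cultures, in neurons after each first replicate number was centred. Of the 52 shared genes, 15 showed no overlap between AM-Veh and AM-Allo in either culture, as did 34 of the 82 opposite genes. Both sets were picked by an unadjusted p under 0.05 (limma) in each culture, which favours groups without overlap. The share of all genes without overlap in both cultures at once was not counted, so these counts are descriptions. Over all genes, with each culture taken alone, 8.77% had no overlap in neurons by the centred measure and 12.6% had none in astrocytes. By this measure, the shared genes that moved furthest without overlap were, beside Scg2, Piwil2, Rbp4, Smndc1 and Bcap29, which fell, and Grb14, Ass1 and Ilvbl, which rose. Without the centring the neuron values of Scg2, Piwil2, Rbp4 and Bcap29 overlapped. Rbp4, the carrier of retinol, was at 53.3, 42.3, 49.9 and 61.9 normalized counts in AM-Veh neurons and 39.3, 37.0, 44.7 and 37.2 in AM-Allo neurons. Its astrocyte values were 493.5, 506 and 457 in AM-Veh and 442, 414 and 410.5 in AM-Allo. The responses were -0.37 ± 0.166 and -0.20 ± 0.0717 (unadjusted p = 0.0396 and 0.0148).

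Ass1, the argininosuccinate synthase of arginine synthesis, rose from 22.1, 25.9, 24.1 and 23.6 normalized counts to 29.9, 29.9, 34.6 and 40.9 in neurons. In astrocytes, where its level was far higher, it went from 3390, 3680 and 3492 to 3741, 3847 and 3912. The responses were 0.47 ± 0.195 and 0.12 ± 0.0395 (unadjusted p = 0.0287 and 0.00799). Grb14, an adaptor that restrains the insulin receptor, had responses of 0.30 and 0.13, and Ilvbl, of fatty acid oxidation in the endoplasmic reticulum, of 0.12 and 0.14. Smndc1, a splicing factor, had responses of -0.13 and -0.20, Bcap29, a chaperone of the endoplasmic reticulum, of -0.12 and -0.21, and Piwil2, of the piRNA pathway, of -0.41 and -0.59 from means of about 20 to 50 counts per library. Of these 8 genes, Scg2 passed adjustment in neurons and none did in astrocytes.

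After the same centring, the opposite genes that moved furthest without overlap were LOC100362339, RT1-CE10, 2 genes with no symbol, Pde1a, Cdhr1, Timm17b and Nkap, and the uncentred neuron values of LOC100362339 and RT1-CE10 overlapped. Cdhr1, a photoreceptor cadherin, was at 70.8, 59.8, 70.3 and 62.0 normalized counts in AM-Veh neurons and 96.5, 77.1, 85.2 and 72.2 in AM-Allo neurons. In astrocytes it was at 324, 320 and 291 against 241, 290.5 and 236. The difference was 0.61 ± 0.171 (unadjusted p = 0.00131, adjusted p = 0.151). RT1-CE10, an MHC class I gene with near-identical paralogs that may share its reads, had responses of -0.48 in neurons and 0.58 in astrocytes. LOC100362339 had responses of -0.76 and 1.42 from counts of 4.37 to 41.4. It reached the minimum mean for testing in astrocytes through AM-Allo (mean 26.4, against 9.29 in AM-Veh). Its responses are therefore given as a description.

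Gene lists were read beside the same counts over all genes, 4.4% of which had a higher and 5.47% a lower response in neurons at an unadjusted p under 0.05. Lists marked as the study's were picked by the study for their change in these same libraries. Their direction and library medians in that culture are thus no independent evidence. The difference holds that picked response, so its counts for these lists, set beside those of all genes, are no independent evidence either. What the lists do not fix is the other culture's response.

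Of the genes the study named for neurons, 36 of 41 in synaptogenesis were tested. In neurons 29 rose and 7 fell, with a median response of 0.11, and in astrocytes none rose and 2 fell, with a median of -0.02. The difference was higher in neurons for 15 and lower for 2 at an unadjusted p under 0.05, and none passed adjustment. Cadm1, a synaptic adhesion molecule, and Grm5, the metabotropic glutamate receptor mGluR5, led the list. Cadm1 had a neuron response of 0.23 and an astrocyte response of 0.02 (adjusted p = 0.099), and Grm5 of 0.16 and -0.08 (adjusted p = 0.191). In each AM-Allo neuron library the list's median stood above the vehicle mean, by 0.083, 0.065, 0.170 and 0.168, and in the AM-Allo astrocyte libraries it was at -0.0025, -0.017 and -0.025.

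Of 15 long-term potentiation genes tested, 13 rose and 2 fell in neurons and 1 fell in astrocytes. Mapk3, the ERK1 kinase, had a neuron response of 0.14 and an astrocyte response of -0.00 (adjusted p = 0.283). Camk2a, a calcium/calmodulin-dependent kinase of excitatory synapses, was at 1134, 1044, 1110.0 and 900.1 normalized counts in AM-Veh neurons and 1242, 1135, 1468 and 1410.0 in AM-Allo neurons. Its astrocyte values were 94.7, 127 and 117 against 82.2, 112 and 99.6, groups that overlapped, and its difference was 0.53 ± 0.181 (adjusted p = 0.302). Camk2g had responses of 0.10 and 0.06 and Elk1, an ERK-activated transcription factor, of 0.24 and 0.10, with differences of 0.04 ± 0.0605 and 0.14 ± 0.0773 that were not distinguishable from 0.

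Of 23 calcium signaling genes, 17 rose and 6 fell in neurons, none rose and 2 fell in astrocytes, and the difference was higher in neurons for 6 and lower for 3. With no replicate block, 11 rose and 3 fell in neurons. Beside Rcan2, Mef2c and Hdac9 led. Mef2c, a transcription factor of activity-dependent genes, had responses of 0.25 and -0.08, and Hdac9, a class IIa deacetylase that represses MEF2, of -0.45 and 0.02 (unadjusted p of the differences = 0.000502 and 0.00103, neither past adjustment). Of 39 CREB signaling genes, 26 rose and 13 fell in neurons (19 and 5 with no replicate block), 1 fell in astrocytes, and the difference was higher for 11 and lower for 9, with 7 and 4 in place of 11 and 9 with no replicate block, and 7 in place of 11 without neuron AM-Veh 2-2, astrocyte AM-Veh 2 or astrocyte AM-Allo 1. The members that moved included G protein subunit Gng2 (responses of 0.24 and -0.03) and the thrombin receptor F2r (-0.16 and 0.01).

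The genes the study named for astrocytes showed the reverse layout. Of 21 EIF2 signaling genes, most of which encode ribosomal proteins, 17 rose and 4 fell in astrocytes, while in neurons none rose and 2 fell. The median response was 0.17 in astrocytes and -0.04 in neurons, and the difference was lower in neurons for 15 and higher for 2, with 4 past adjustment. The 17 became 10, 11 and 9 without astrocyte AM-Veh 1, AM-Veh 2 or AM-Allo 2. Of 13 oxidative phosphorylation (OXPHOS) genes, all 13 rose in astrocytes with a median of 0.24, and in neurons none rose and 2 fell with a median of -0.02. The difference was lower in neurons for 12. Cox6b1, a cytochrome c oxidase subunit, had responses of 0.31 in astrocytes and -0.03 in neurons (adjusted p = 0.0754).

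The full gene families, taken by symbol, were counted too. The OXPHOS family holds all 13 OXPHOS genes the study named, and the ribosomal family holds part of its EIF2 list. The family counts are therefore not independent of those lists. Of 67 cytosolic ribosomal protein genes tested, 13 rose and 1 fell in astrocytes, around a median of 0, and none rose and 5 fell in neurons. Their difference was lower in neurons for 14 and higher for 1. The 13 became 8 under upper-quartile scaling and without astrocyte AM-Veh 1, and 7 without AM-Allo 2. Of 78 nuclear-encoded OXPHOS genes, 19 rose and none fell in astrocytes, around a median of 0.02, and none rose and 4 fell in neurons. Their difference was lower in neurons for 19 and higher for none. The median of 0.02 became -0.00067 under upper-quartile scaling, and the 19 became 12 without astrocyte AM-Veh 1 and 11 without AM-Allo 2. The AM-Allo astrocyte libraries did not rise evenly. The median of the EIF2 list stood at 0.117, 0.230 and 0.080 above the vehicle mean in replicates 1, 2 and 3, and that of the 13 OXPHOS genes at 0.114, 0.285 and 0.279.

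Transcripts of mitochondrial DNA went the other way. Of 12 tested, 7 fell and none rose in astrocytes with a median of -0.10, and 2 fell in neurons with a median of -0.03. The median over the list stood at -0.090, -0.163 and -0.061 in the AM-Allo astrocyte libraries. AM-Allo replicate 2 was thus the highest library for the nuclear lists and the lowest for this list, and the 7 became 3, 4 and 3 without astrocyte AM-Veh 1, AM-Allo 1 or AM-Allo 2. Mt-nd3 and Mt-nd4l, subunits of complex I, had astrocyte responses of -0.34 and -0.25 and neuron responses of 0.00 and -0.03 (adjusted p = 0.181 and 0.168). Mitochondrial transcripts made up 4.92% to 5.30% of normalized counts in neuron libraries and 2.91% to 3.43% in astrocyte libraries. Of 17 genes of mitochondrial biogenesis and dynamics, 1 fell in each culture and none had a difference at an unadjusted p under 0.05.

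**Figure D3:**
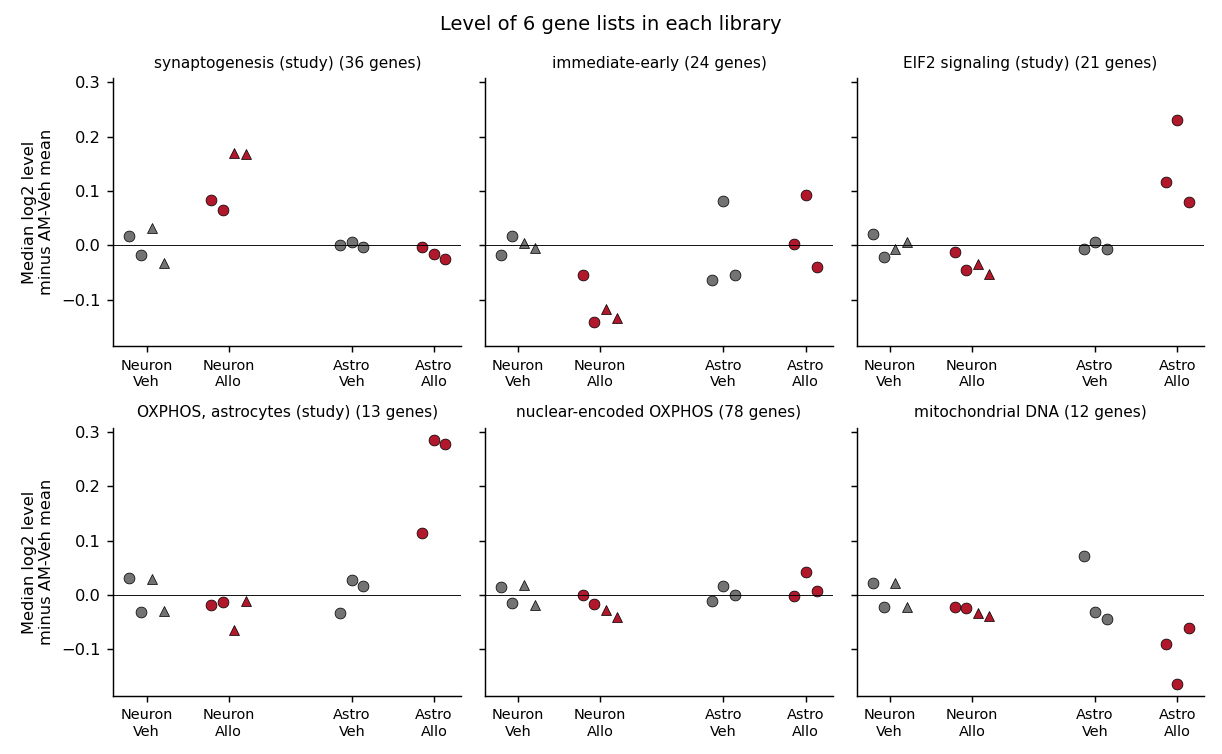
Median log2 level of the genes of 6 lists in each library, relative to the AM-Veh mean of its culture (in neurons, of its first replicate number: circles 1, triangles 2). The AM-Allo neuron libraries lie above 0 for synaptogenesis and below it for immediate-early genes, and the AM-Allo astrocyte libraries lie above 0 for EIF2 signaling and the 13 OXPHOS genes and below it for mitochondrial DNA.

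Immediate-early genes are the transcription factors and effectors induced within minutes of activity. Of 24 tested, 1 rose and 7 fell in neurons with a median response of -0.11, and 2 rose and none fell in astrocytes with a median of 0.01. The difference was lower in neurons for 7 and higher for 2, and the latter 7 became 4 without astrocyte AM-Veh 3 and 3 without AM-Allo 2. With no replicate block, 3 fell and none rose in neurons, and the difference was lower for 3 and higher for none. Under upper-quartile scaling the astrocyte median was -0.0079. Fosb was at 17.6, 14.4, 22.5 and 14.01 normalized counts in AM-Veh neurons and 12.4, 4.88, 7.21 and 11.6 in AM-Allo neurons. Its astrocyte values of 30.6, 42.4 and 52.0 against 41.5, 52.5 and 51.1 overlapped. Fosb reached the minimum mean for testing in neurons through AM-Veh (mean 17.1, against 9.01 in AM-Allo). Its fall is therefore given as a description, although it counts among the 7 that fell. Egr1, a zinc finger factor, fell in the neuron libraries numbered 2, from 725 and 708 to 416 and 419, with a response of -0.78, while in those numbered 1 it was at 447 and 516 against 458 and 463. Ier3 had responses of -0.13 in neurons and 0.27 in astrocytes (adjusted p of the difference = 0.301).

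ERK feedback genes, Dusp4 among them, are induced by ERK and then dampen it. Of 16 tested, 2 rose and 4 fell in neurons around a median of -0.02, 2 rose and 1 fell in astrocytes, and the difference was lower in neurons for 5 and higher for 1, with 3 in place of 5 with no replicate block and without neuron AM-Veh 2-2 or AM-Allo 2-2. Dusp5, a nuclear ERK phosphatase, went from 157.5, 142, 156 and 113 normalized counts to 108, 91.0, 96.3 and 75.5 in neurons. Within each first replicate number these groups did not overlap. In astrocytes it was at 89.5, 127 and 104 against 126, 116 and 103, which overlapped, and its difference was -0.73 ± 0.203 (adjusted p = 0.154). Spred3, an inhibitor of Ras-ERK signalling, had responses of -0.48 and -0.12 (adjusted p = 0.182).

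GABA-A receptor subunits, the direct targets of Allo, were tested for 8 of 16 listed genes. In neurons 2 rose and none fell, and in astrocytes 1 fell. Gabra3 had responses of 0.24 and -0.15 (adjusted p of the difference = 0.267), and Gabrq, at 6.83 to 16.1 counts in all libraries, of -0.34 and 0.72. Gabrq reached the mean of 10 in astrocytes through AM-Allo (mean 13.1, against 7.49 in AM-Veh). In neurons it did so through AM-Veh (12.9, against 9.87 in AM-Allo), so its responses are given as a description. Of 14 chloride transport genes 1 rose and 2 fell in neurons and none changed in astrocytes, of 9 L-type calcium channel subunits 1 rose in neurons and none changed in astrocytes, and none of either list had a difference at an unadjusted p under 0.05.

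Most cholesterol synthesis genes did not pass the test in either culture. Of 23 genes, 7 rose and none fell in neurons, with a median of 0.05, and 4 rose and none fell in astrocytes, with a median of 0.07. In 2 of them both responses passed. The list's median was at 0.104, -0.00489 and 0.0941 in the AM-Allo astrocyte libraries, the second of them inside the AM-Veh range of -0.0458 to 0.0421. Their difference was higher in neurons for 1, Dhcr7, and lower for 1, Cyp51, near the shares of all genes. The cell cycle list of 28 genes had 6 that rose and none that fell in neurons and 1 that rose in astrocytes, and the 6 became 1 with no replicate block and 3 and 2 without neuron AM-Veh 1-2 or AM-Allo 1-2. Rrm2, which makes deoxynucleotides, had responses of 0.41 and -0.17 (adjusted p = 0.132).

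**Figure D4:**
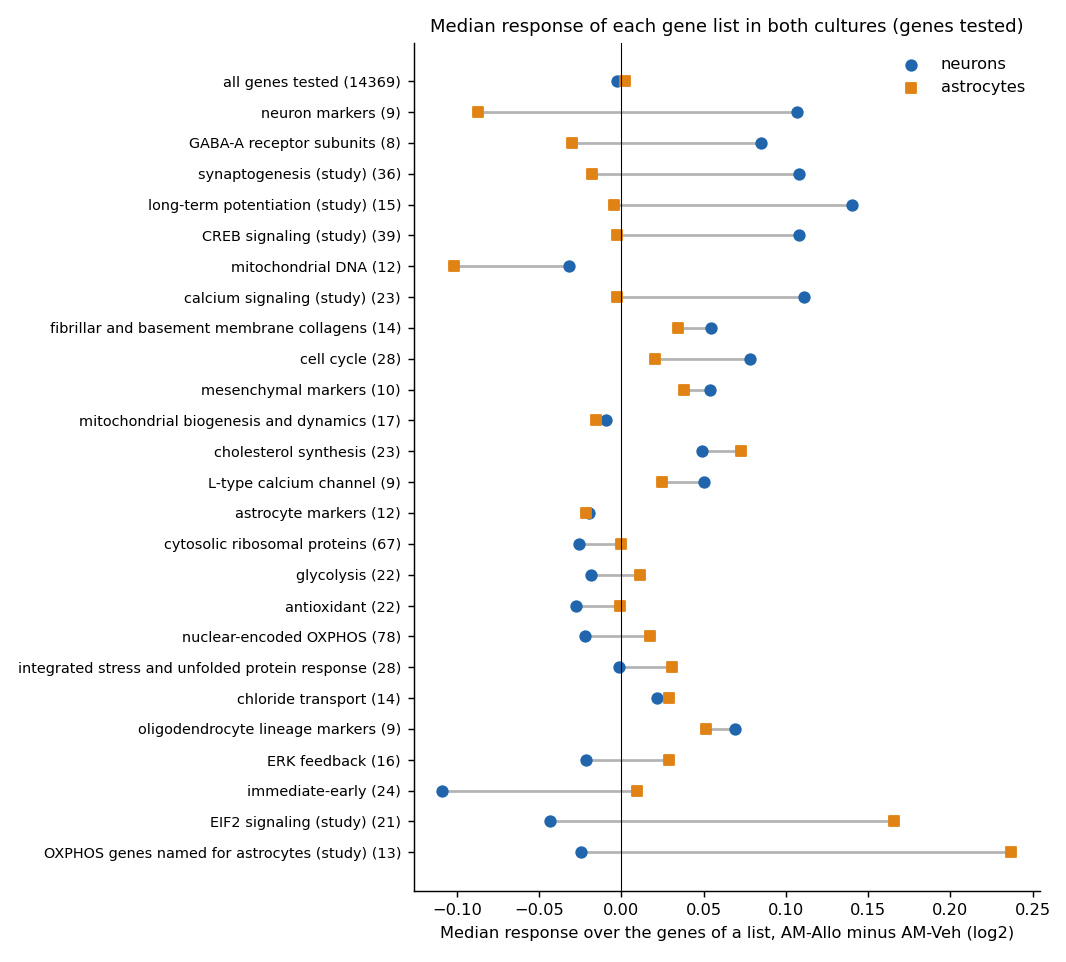
Median response (AM-Allo minus AM-Veh, log2) of each list with at least 8 tested genes, in neurons (circles) and astrocytes (squares), ordered by the median of the gene-wise difference, with the number of genes in parentheses. The study's neuron lists lie to the right in neurons and near 0 in astrocytes, its EIF2 and OXPHOS lists the reverse, and cholesterol synthesis lies to the right in both.

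The remaining lists held few differences. Of 28 genes of the integrated stress and unfolded protein response, the difference was lower in neurons for 3 and higher for 1, led by the transcription factor Cebpb with responses of -0.13 and 0.35 (adjusted p = 0.0503) and by Ddit4, an inhibitor of mTORC1, with -0.02 and 0.23 (adjusted p = 0.139). Of 22 antioxidant genes it was lower for 2 (Gpx4 and Txnrd1) and higher for 1 (Txn1). Of 22 glycolysis genes it was higher for 2, among them the neuronal glucose transporter Slc2a3, and lower for Ldha and Pgk1. Slc2a3 had responses of 0.34 in neurons and -0.01 in astrocytes (adjusted p = 0.187). Among 14 collagens, Col3a1 was higher and Col12a1 lower, and Col3a1 ran from 2.82 to 438 counts among neuron libraries. None of the 6 inflammasome genes tested changed in either culture, and 9 of the 15 listed, Nlrc4 and Pycard among them, did not reach a mean of 10 in both tables and were not tested. With a mean of at least 1, 11 were tested, of which 1 rose in neurons and 2 fell in astrocytes.

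Marker genes moved as follows. Of 9 neuron markers tested, 5 rose and 1 fell in neurons and 2 fell in astrocytes, among them Map2 (0.10 and -0.13) and Dcx (0.11 and -0.36), both of the neuronal cytoskeleton, with Dcx at 79.2 to 125 counts in astrocyte cultures against 12033 to 13662 in neuron cultures. The 5 became 3 with no replicate block and without neuron AM-Veh 2-2, AM-Allo 2-1 or AM-Allo 2-2. Of 12 astrocyte markers, 1 rose and 2 fell in neurons and 2 fell in astrocytes. Slc1a2, the glutamate transporter GLT-1, had responses of 0.10 and -0.36, Fgfr3 of -0.11 and 0.08, and S100b of -0.06 and -0.09. Of 9 oligodendrocyte lineage markers, 5 rose in neurons and none passed in astrocytes, and the 5 became 2 with no replicate block. With a mean of at least 1, 9 of 14 rose in neurons. None of 4 microglia markers or 2 endothelial markers tested changed in either culture, and the other microglia markers were below a mean of 10 or not listed in neurons. The part of these shifts in the other differences was not tested.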

How the data were processed

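RNA was sequenced from 14 libraries of poly(A)-selected, stranded RNA with paired ends. The signal values used are normalized counts: per the methods of the study and the labels' tool list, the authors quantified reads with Salmon 0.14 against Ensembl release 95 rat transcripts, summed them to genes and divided them by DESeq2 1.18.1 size factors, separately for neurons and astrocytes, so depth is not held directly. The smallest common step of the low values gave the estimate of reads on genes. The deposited variance-stabilized log2 values, from which the authors had removed the effect of the first replicate number in neurons (it was 0 in 100% of genes), served as an alternative.

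Values were taken as log2(normalized count + 1) and fitted per table with limma 3.58.1 (R 4.3.3, trend), neurons with the first replicate number as a block, astrocytes without. The study's design used counts, which were not used here, so limma took the place of a count test. The difference of the 2 coefficients was tested with their SEs combined, two-sided, with Benjamini-Hochberg adjustment over all 14369 genes, after a test on simulated data. Deviations from the group means correlated at 0.22 to 0.314 between AM-Veh and AM-Allo neuron libraries of the same first number, at -0.339 to -0.221 between others, and at -0.0101 to 0.02 between same-numbered astrocyte libraries, so the block was used in neurons alone. What the first number marks is not given in the sources used here.

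Genes named are up to 16 with an adjusted p under 0.05 by smallest p, 8 shared and 8 opposite genes with the largest change without overlap in either culture (neurons centred by first number), up to 3 per list with the smallest p under 0.05, and genes described earlier for these data. The other genes past adjustment, Sst and the promoters shown were chosen after their values were seen. Members and lists were chosen with earlier results of these data known. Alternatives were 13 settings and 14 left-out libraries. Gene symbols turned into dates (21 and 24) were not used. RefSeq (GRCr8) supplied promoters by symbol.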

Additional observations from a re-analysis of the deposited data

Results flagged for a closer look

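The difference between the neuron and astrocyte responses (log2, neuron minus astrocyte) passed the adjusted test for these named genes. It was negative for Vgf (-1.07), Rpl37 (-0.904), Dusp4 (-0.711), Atp5mg (-0.567), Rps21 (-0.556), Gad1 (-0.467), RGD1560324 (-0.466), Rps10l1 (-0.434), Tagln (-0.410), Cox8a (-0.400), Abcb1b (-0.338), Hivep2 (-0.324), Rcan2 (-0.317), S1pr3 (-0.274) and Rplp1 (-0.201). It was also negative for Gatd1 (-3.76) and for the gene with the identifier ENSRNOG00000054489 and no symbol (-0.663). It was positive for Pde1a (1.07), Nkap (0.639), Timm17b (0.513) and Prnp (0.233), and for ENSRNOG00000048433 (0.402) and ENSRNOG00000051257 (0.341), which have no symbol either.

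In 10 of the 158 neuron groups of the 79 named genes, 1 library stood apart from the other 3, and chance gives about 1 in 20. Gatd1 was at 41.7 normalized counts in AM-Veh 2-1 and at 2.81 to 7.10 in the others. Col3a1 was at 438 in AM-Allo 1-1 and at 20.8 to 78.3 in the others. Rps10l1 was at 993 in AM-Veh 1-1 against 1110 to 1130, Nkap at 353 in AM-Veh 2-2 against 414 to 422, and Slc2a3 at 816 in AM-Veh 2-2 against 1020 to 1050. Ilvbl was at 395 in AM-Veh 2-1 against 422 to 425, Mapk3 at 2090 in AM-Veh 2-1 against 2130 to 2140, and Gabra3 at 284 in AM-Veh 2-1 against 253 to 256. Dhcr7 was at 1230 in AM-Allo 2-1 against 1150 in the others, and Ldha at 10600 in AM-Allo 2-2 against 11000 to 11100.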

How the results depend on the processing

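The count of 34 genes with an adjusted p under 0.05 for the difference became 2 with no replicate block, 62 with a replicate block by number in astrocytes too, 2 in a joint fit of both tables, 1 with no trend and 79 with the variance-stabilized values, and it was 24 to 41 under the other settings that kept all libraries, among them 34 with a replicate block by the whole number in neurons. Leaving out single libraries gave 4 to 97. The unadjusted count of 1418 ran from 1041 with no replicate block to 1606 with a mean of at least 1, and from 1196 to 1522 with a library left out. Under upper-quartile scaling, 63.3% of the 1463 differences past the unadjusted threshold were positive (neurons higher), against 44.6% as reported, and the median difference over all genes moved from -0.0033 to 0.0229. Genes changed in both cultures numbered 20 in the same direction and 38 in opposite directions with no replicate block, and 37 to 65 and 57 to 104 with a library left out. The correlation of the responses was -0.052 with a mean of at least 50, -0.0404 with a mean of at least 1, -0.06 with the variance-stabilized values and -0.097 to -0.0552 with a library left out. The cause was not tested. The differences of Camk2g and S100b, which were not distinguishable from 0, ran from -0.00565 to 0.0673 and from -0.00318 to 0.0596 with a library left out, changing sign without astrocyte AM-Veh 1. Vgf kept its direction throughout, from -1.18 to -0.734, with adjusted p-values from 1.41e-06 to 0.129. The median SE of a response was 0.182 in neurons and 0.22 in astrocytes in genes with a lower mean of 10 to 100, against 0.0321 and 0.0432 above 1000.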
